A study of Mus musculus with 12 samples.

Results

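The genes described here are 36 mouse genes of the unfolded protein response and of protein folding in the endoplasmic reticulum (ER), taken by gene symbol. Of these, 35 had at least 1 probe named on the array, with 67 probes in all, and Dnajb11 was not analysed here. A gene was tested where a probe was detected on at least 2 arrays, which left 28 of the 36 among 14240 tested genes (named genes, and probes with no gene name). The other 7, Canx, Manf, Ero1a, Eif2ak3, Edem1, Derl1 and Derl3, had no probe that passed, so nothing is said of how they changed.

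The animals were adult male mice of the strain C57Bl/6J, and RNA of the whole heart of each of the 12 was read on 1 Illumina bead array. The 4 groups were 4 VEGFR1-deleted hearts given VEGF-B virus, 3 VEGFR1-deleted hearts given scramble virus, 2 wild-type hearts given VEGF-B virus and 3 wild-type hearts given scramble virus, and they are called deleted VEGF-B, deleted scramble, wild-type VEGF-B and wild-type scramble hearts below. VEGFR1, encoded by Flt1, is a receptor for VEGF-B, and it was removed with tamoxifen in mice of the genotype Cdh5-Cre-ERT2; Flt1 flox/flox, in which the Cdh5 promoter drives the inducible recombinase in endothelium. An adeno-associated virus (AAV), injected i.p., brought VEGF-B into the heart or a scrambled control sequence. Whether the wild-type mice carried the Cre transgene or received tamoxifen, the virus dose and the time after injection are not given in the sources used here. The RNA came from whole hearts, so more cells of a type and more RNA per cell cannot be told apart.

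Proteins that are secreted or sit in membranes fold in the ER, helped by chaperones, by J proteins that direct the chaperone BiP, and by enzymes that make disulfide bonds. When unfolded protein builds up, the sensors IRE1, ATF6 and PERK respond. IRE1 splices Xbp1 mRNA, and ATF6 is cut to release a transcription factor. Both raise chaperones and degradation genes. PERK slows translation and raises ATF4, which drives amino acid genes, Ddit3 and Trib3.

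Across the 12 arrays the median raw signal lay between 98.7 and 111.5, and 16685 to 18210 probes were detected. The Flt1 probe (ILMN_1227926) read 8.93 to 9.47 on the log2 scale in deleted VEGF-B hearts, 8.19, 8.46 and 11.56 in deleted scramble hearts, 11.51 and 11.22 in wild-type VEGF-B hearts, and 10.79 to 10.91 in wild-type scramble hearts. The library labelled deleted scramble replicate 3, at 11.56, therefore went against its label, and the calls that rest on it are also given without it. The Vegfb probe (ILMN_2450384) differed by -0.12 with the VEGF-B virus in deleted hearts (limma adjusted p = 0.495) and by -0.04 in wild-type hearts (adjusted p = 0.921), so it does not show the virus. The values the authors deposited had been normalized in 3 sets of arrays. All 4 deleted VEGF-B hearts formed a set of their own, so that set and that group cannot be told apart in any comparison that uses them. Both wild-type VEGF-B hearts were in a set with deleted scramble replicate 3. All wild-type scramble hearts were in the remaining set, with deleted scramble replicates 1 and 2. Between the 2 wild-type groups, set and virus therefore cannot be told apart either.

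With deletion and VEGF-B together, 13 of the 28 tested genes rose, where 11.6% of all genes tested rose, and none fell, where 9.43% of all genes fell. A gene rose or fell where its adjusted p in limma was under 0.05. By count the calls were 5 of 7 tested chaperones, 3 of 4 disulfide enzymes, 1 of 3 J proteins, 2 of 4 regulators, 1 of 4 degradation genes, 1 of 4 translocation and transport genes, and neither tested sensor. Sdf2l1 was 3.10-fold and Pdia4 2.17-fold as high in deleted VEGF-B hearts as in wild-type scramble hearts. With the VEGF-B virus within deleted hearts 5 genes rose, Sdf2l1, Pdia4, Hsp90b1, Creld2 and Syvn1, against 2.82% of all genes, and none fell, against 1.79%. None passed with the virus in wild-type hearts (1.99% of all genes), or with the deletion under scramble (0.0562%) or VEGF-B virus (0%). On the branch that runs through ATF4, Ddit3 was among the 13, Atf4 and Trib3 did not pass, and of 21 tested genes of a list of other ATF4 and integrated stress response targets none rose and 3 fell.

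Some of these genes carry, just before their start, the element through which ATF6 and XBP1 are known to act, the ER stress response element, which is CCAAT, any 9 bases, then CCACG. Promoters of GRCm38.p6 were taken from RefSeq, 250 bases before each gene's start, and matched 30 of the 36 genes by symbol. The element, searched as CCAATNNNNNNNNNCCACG on both strands, was found in 9 of the 30 (Calr, Canx, Creld2, Derl3, Dnajc3, Hsp90b1, Hspa5, Pdia6 and Syvn1), against 0.13% of all 27025 genes with a promoter. The 36 genes were named as genes of this response and the element is the known one of the same response. That share therefore follows from the choice of genes and says nothing of these hearts. The sequences below are those of the 5 of these 9 genes that rose with deletion and VEGF-B together. Each runs 5′ to 3′ along its gene, with 15 bases to either side of the element, which is in capitals and is reversed in Creld2 and in the second copy of Hsp90b1.
Syvn1 (chr19:6046517-6046565, plus strand): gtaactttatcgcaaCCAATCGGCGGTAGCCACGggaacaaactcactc
Creld2 (chr15:88819505-88819553, plus strand): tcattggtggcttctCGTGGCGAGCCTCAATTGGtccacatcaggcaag
Hsp90b1 (chr10:86705518-86705671, minus strand): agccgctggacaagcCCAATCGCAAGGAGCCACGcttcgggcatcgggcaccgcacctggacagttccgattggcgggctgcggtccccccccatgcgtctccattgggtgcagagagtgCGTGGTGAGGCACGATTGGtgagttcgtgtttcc
Hspa5 (chr2:34772010-34772058, plus strand): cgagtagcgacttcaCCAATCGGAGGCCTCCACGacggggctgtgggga
Dnajc3 (chr14:118937812-118937860, plus strand): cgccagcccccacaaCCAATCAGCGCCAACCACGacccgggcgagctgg

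The stretches lie within 227 bases of the start in all 5 genes, and closest in Syvn1, from 59 to 11 bases before it. As only 250 bases were searched, that they lie near the start was set by the search. Of the 7 tested genes with the element, 5 rose with deletion and VEGF-B together, with Calr and Pdia6 not passing, and their median log2 fold change was 0.61. Of the 17 tested genes whose promoter had no such match, 7 rose and the median was 0.26. Sdf2l1 and Pdia4, with the largest fold changes, are among these 17, which says only that those letters are not in that window. Outside the 36 genes the element stood before 5 other tested genes. Of these, Ero1b, an oxidase of disulfide isomerases, had a log2 fold change of 0.68 with the virus in deleted hearts (limma adjusted p = 0.0323, and 0.0575 without deleted scramble replicate 3), and Alg12, Adcy3, Acacb and Pan2 did not pass there. With both, Acacb, an enzyme that restrains fat oxidation, fell by 0.50 (limma adjusted p = 0.00397), and the other 4 did not pass. Herpud1 alone of the 30 held the second form of the element, ATTGGNCCACG, present in 0.037% of genes, and the amino acid response element TTGCATCA, present in 0.918%. The UPR element TGACGTGG, in 0.603% of genes, was in none of the 30.

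The chaperones (9 genes, 7 tested) held the most calls. With deletion and VEGF-B together Sdf2l1, Hspa5, Creld2, Hsp90b1 and Serpinh1 rose, and Calr and Hyou1 did not pass. Values are normalized log2 signals, given per heart, and compared only within a probe. Sdf2l1, an ER protein that keeps misfolded proteins from clumping (ILMN_1221943), read 7.35, 7.31, 7.61 and 7.65 in deleted VEGF-B hearts, 5.82, 5.50 and 6.28 in deleted scramble hearts, 6.96 and 6.02 in wild-type VEGF-B hearts, and 6.12, 5.60 and 5.83 in wild-type scramble hearts. All 4 deleted VEGF-B hearts lay above all 8 others, and 1 wild-type VEGF-B heart stood between them and the rest. Its log2 fold change was 1.63 ± 0.22 (SE; limma adjusted p = 0.000283) with deletion and VEGF-B together and 1.61 ± 0.22 with the virus in deleted hearts (adjusted p = 0.00834). In the authors' deposited table the first of these was 0.99.

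Hsp90b1, the ER form of HSP90 (ILMN_2504433), read 11.65, 11.37, 11.98 and 11.61 in deleted VEGF-B hearts, 10.85, 10.85 and 10.97 in deleted scramble hearts, 11.53 and 10.98 in wild-type VEGF-B hearts, and 11.13, 11.04 and 10.83 in wild-type scramble hearts. The deleted VEGF-B hearts lay above both scramble groups, and wild-type VEGF-B replicate 1 lay among them. The log2 fold change was 0.65 ± 0.15 with deletion and VEGF-B together (limma adjusted p = 0.00927) and 0.76 ± 0.15 with the virus in deleted hearts (adjusted p = 0.0209). Creld2, a folding factor of the ER induced by unfolded protein (ILMN_2757368), read 8.16, 8.12, 8.39 and 7.97 in deleted VEGF-B hearts, 7.29, 7.47 and 7.58 in deleted scramble hearts, 8.17 and 7.48 in wild-type VEGF-B hearts, and 7.58, 7.24 and 7.49 in wild-type scramble hearts. The pattern was that of Hsp90b1, with the same wild-type VEGF-B heart among the deleted VEGF-B hearts. Creld2 rose by 0.72 ± 0.16 in both comparisons (limma adjusted p = 0.00596 together and 0.0262 with the virus in deleted hearts). A second Creld2 probe gave 1.05 and 0.78 and passed in both.

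Hspa5, which encodes BiP, the main ER chaperone and the partner of the sensors, had a dim probe (ILMN_1255561), detected on 6 of 12 arrays. It read 5.53, 4.99, 5.15 and 5.34 in deleted VEGF-B hearts, 4.59, 4.66 and 5.12 in deleted scramble hearts, 4.86 and 4.70 in wild-type VEGF-B hearts, and 4.44, 4.70 and 4.41 in wild-type scramble hearts. It was detected in all deleted VEGF-B hearts and in no wild-type scramble heart, and these groups did not overlap. By the means of background-corrected signals it was therefore at least 1.27-fold higher with deletion and VEGF-B together, a bound that makes no allowance for spread. The fitted log2 fold change was 0.74 ± 0.15 (limma adjusted p = 0.00424). It was 0.25 without background correction, so the bound holds only for corrected signals. Serpinh1, the collagen chaperone HSP47 (ILMN_2777359), read 12.68, 12.63, 12.84 and 12.58 in deleted VEGF-B hearts, 12.38, 12.31 and 12.49 in deleted scramble hearts, 12.41 and 12.48 in wild-type VEGF-B hearts, and 12.27, 12.21 and 12.15 in wild-type scramble hearts. Both single changes lay between the wild-type scramble hearts and the deleted VEGF-B hearts, with no overlap at either end. The rise with both was 0.47 ± 0.09 (limma adjusted p = 0.00341), while a second, dimmer probe gave 0.21 and did not pass.

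Calr (ILMN_2861176), a lectin chaperone for glycoproteins, had a log2 fold change of 0.59 ± 0.20 with deletion and VEGF-B together (limma adjusted p = 0.0551), from 7.64 ± 0.42 (SD, n = 4) in deleted VEGF-B hearts against 7.06 ± 0.11 (SD, n = 3) in wild-type scramble hearts. The groups overlapped, as deleted VEGF-B replicate 1, at 7.15, lay below the highest wild-type scramble heart, at 7.18. Hyou1 (ILMN_2661367), a chaperone that recharges BiP, differed by 0.20 ± 0.17. Canx and Manf, the membrane-bound lectin chaperone and a secreted BiP partner, had 1 probe each, detected on no array.

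**Figure D1:**
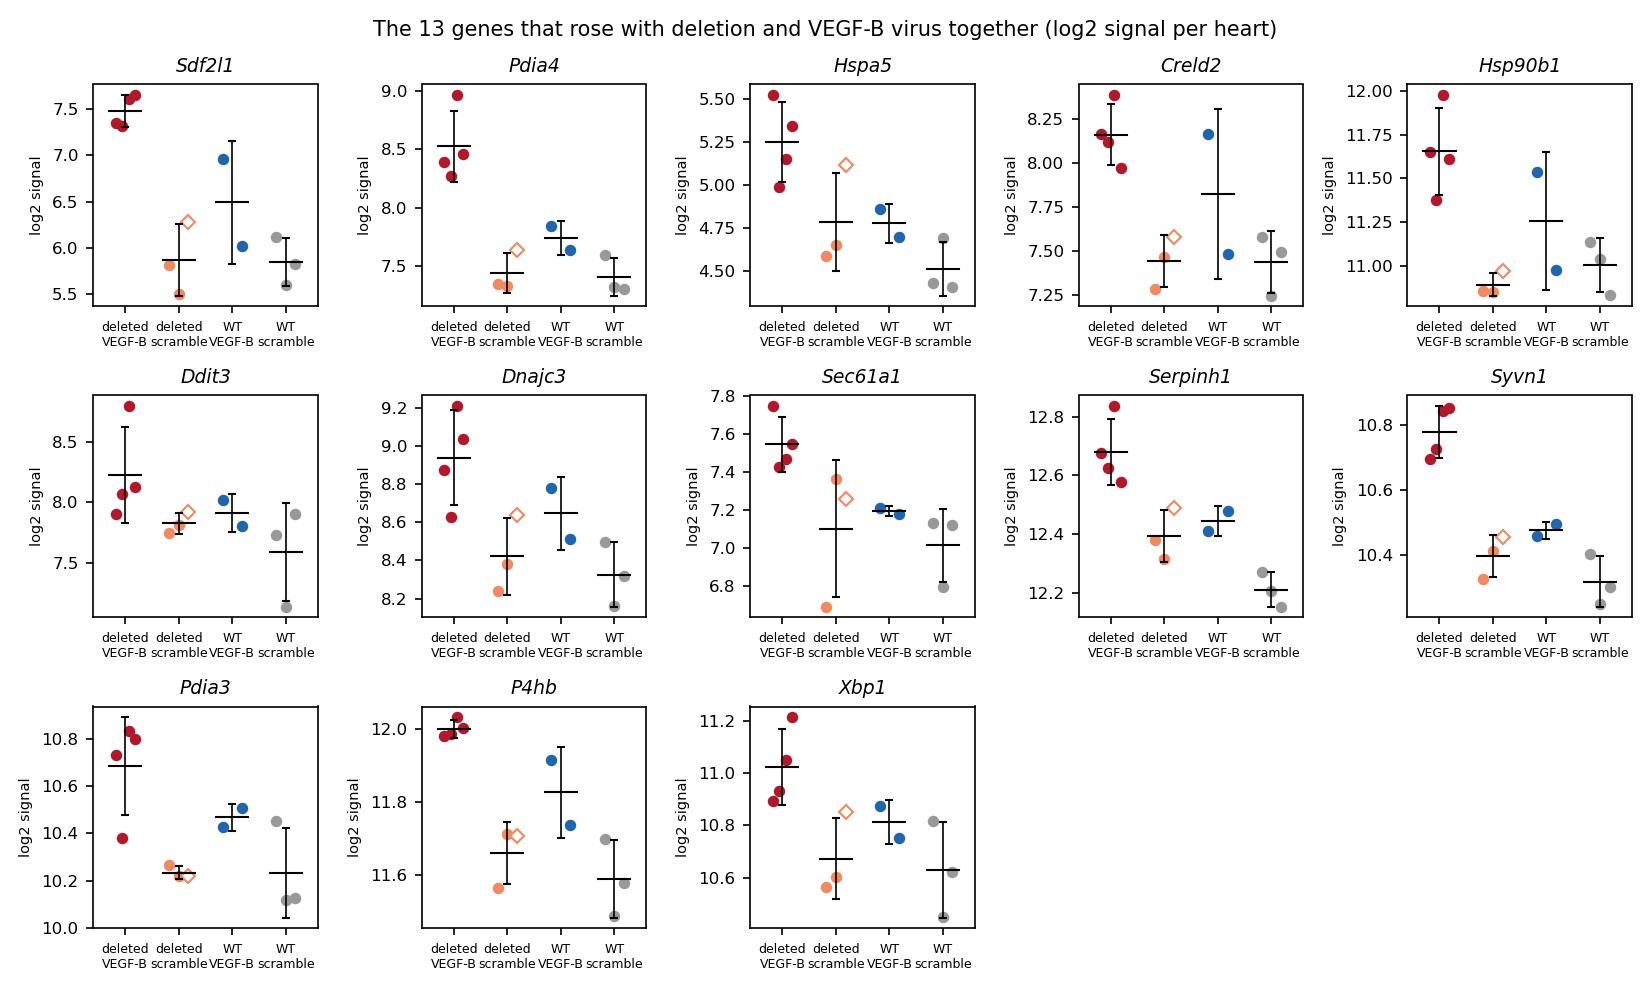
Normalized log2 signal per heart of the 13 genes that rose with deletion and VEGF-B together, in deleted VEGF-B, deleted scramble, wild-type VEGF-B and wild-type scramble hearts. Points are hearts, lines group means, bars SD, and the open diamond is deleted scramble replicate 3. Sdf2l1 and Pdia4 have all 4 deleted VEGF-B hearts above all others, whereas Ddit3 and Pdia3 overlap with wild-type scramble hearts.

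Among the J proteins (4 genes, 3 tested) only Dnajc3 rose. Dnajc3, or p58IPK, a BiP co-chaperone (ILMN_2870549), read 8.88, 8.63, 9.21 and 9.04 in deleted VEGF-B hearts, 8.24, 8.38 and 8.64 in deleted scramble hearts, 8.78 and 8.51 in wild-type VEGF-B hearts, and 8.50, 8.16 and 8.32 in wild-type scramble hearts. The deleted VEGF-B hearts lay above all wild-type scramble hearts. They overlapped slightly with the deleted scramble hearts through replicate 3 of that group. The log2 fold change was 0.61 ± 0.15 with both (limma adjusted p = 0.0107) and 0.52 ± 0.15 with the virus in deleted hearts (adjusted p = 0.0657). Dnajb9 (ERdj4; ILMN_2829636), which helps BiP hold IRE1 inactive, differed by 0.22 ± 0.14 with both, and Dnajc10 (ILMN_3128019), a reductase that opens disulfide bonds before degradation, by 0.10 ± 0.09. Neither passed.

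Of the disulfide enzymes (5 genes, 4 tested) Pdia4, Pdia3 and P4hb rose with deletion and VEGF-B together. Pdia4 (ERp72; ILMN_1249670) read 8.39, 8.27, 8.97 and 8.46 in deleted VEGF-B hearts, 7.35, 7.33 and 7.64 in deleted scramble hearts, 7.84 and 7.64 in wild-type VEGF-B hearts, and 7.59, 7.32 and 7.30 in wild-type scramble hearts. The 4 deleted VEGF-B hearts stood apart from all 8 others, and both wild-type VEGF-B hearts lay just above the wild-type scramble hearts. The rise was 1.12 ± 0.16 with both (limma adjusted p = 0.00033) and 1.09 ± 0.16 with the virus in deleted hearts (adjusted p = 0.00834).

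Pdia3, or ERp57, which works with calreticulin (ILMN_2736875), read 10.73, 10.38, 10.83 and 10.80 in deleted VEGF-B hearts, 10.27, 10.22 and 10.22 in deleted scramble hearts, 10.43 and 10.51 in wild-type VEGF-B hearts, and 10.45, 10.12 and 10.13 in wild-type scramble hearts. Replicate 2 of the deleted VEGF-B hearts lay below the highest wild-type scramble heart, so the groups overlapped, and the rise was 0.45 ± 0.12 (limma adjusted p = 0.0192). P4hb, the archetypal disulfide isomerase and a subunit of collagen prolyl hydroxylase (ILMN_2735996), read 11.98, 11.98, 12.03 and 12.00 in deleted VEGF-B hearts, 11.56, 11.71 and 11.71 in deleted scramble hearts, 11.91 and 11.74 in wild-type VEGF-B hearts, and 11.70, 11.49 and 11.58 in wild-type scramble hearts. The deleted VEGF-B hearts were nearly level and above all 8 others, with a rise of 0.41 ± 0.09 (limma adjusted p = 0.00628). With the virus in deleted hearts Pdia3 gave 0.45 and P4hb 0.34, just short of the threshold (limma adjusted p = 0.0548 and 0.0522). Pdia6 (ILMN_2489360), another isomerase, differed by 0.39 ± 0.18 with both (limma adjusted p = 0.147). Ero1a, the oxidase that recharges these enzymes, had 2 probes, both undetected on all arrays.

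Neither tested sensor passed in any comparison of the fit with all 12 arrays. Ern1, which encodes IRE1 (ILMN_2502860), read 5.75, 5.82, 5.60 and 5.85 in deleted VEGF-B hearts, 5.21, 5.30 and 6.34 in deleted scramble hearts, 5.66 and 5.78 in wild-type VEGF-B hearts, and 5.93, 6.15 and 6.11 in wild-type scramble hearts. Deleted VEGF-B and wild-type VEGF-B hearts all lay below the wild-type scramble hearts, as did deleted scramble replicates 1 and 2, while replicate 3 was the highest of the 12. Ern1 differed by -0.31 ± 0.21 with deletion and VEGF-B together (limma adjusted p = 0.328) and by -0.45 ± 0.22 with the deletion under scramble (adjusted p = 0.491). Without deleted scramble replicate 3 it fell by 0.81 with the deletion under scramble (limma adjusted p = 0.0314; 0.0213% of all genes were called lower), fell by 0.31 with deletion and VEGF-B together (adjusted p = 0.0426) and rose by 0.50 with the virus in deleted hearts (adjusted p = 0.022). Replicate 3 is also the library whose Flt1, at 11.56, went against its label and lay above all wild-type hearts.

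Atf6 (ILMN_2454587) read 4.93, 5.38, 4.78 and 5.07 in deleted VEGF-B hearts, 5.10, 5.33 and 5.10 in deleted scramble hearts, 5.00 and 5.12 in wild-type VEGF-B hearts, and 4.90, 5.41 and 4.54 in wild-type scramble hearts. It was detected on 9 arrays, the groups overlapped throughout, and its difference with deletion and VEGF-B together was 0.09 ± 0.18. Eif2ak3, which encodes PERK, had 2 probes, both undetected on all arrays. The splicing of Xbp1 and the cleavage of ATF6 were not measured here.

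Of the 4 regulators downstream, Xbp1 and Ddit3 rose with deletion and VEGF-B together. Xbp1, the transcription factor made by IRE1 splicing (ILMN_2431237), read 10.89, 10.93, 11.05 and 11.22 in deleted VEGF-B hearts, 10.57, 10.60 and 10.85 in deleted scramble hearts, 10.87 and 10.75 in wild-type VEGF-B hearts, and 10.82, 10.45 and 10.62 in wild-type scramble hearts. The deleted VEGF-B hearts lay above the rest by a narrow margin, and the rise was 0.39 ± 0.12 (limma adjusted p = 0.0328). Ddit3, or CHOP, a factor linked to cell death under lasting stress (ILMN_2652909), read 7.91, 8.07, 8.80 and 8.13 in deleted VEGF-B hearts, 7.75, 7.81 and 7.92 in deleted scramble hearts, 8.02 and 7.80 in wild-type VEGF-B hearts, and 7.73, 7.13 and 7.91 in wild-type scramble hearts. Replicate 3 of the deleted VEGF-B hearts was far the highest, replicate 1 lay at the level of the highest wild-type scramble heart, and the rise of 0.64 ± 0.21 only just passed (limma adjusted p = 0.0461). A second Ddit3 probe gave 0.74 and passed.

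Atf4 (ILMN_2642681) read 10.11, 10.35, 10.27 and 9.97 in deleted VEGF-B hearts, 10.36, 9.96 and 10.52 in deleted scramble hearts, 10.75 and 10.29 in wild-type VEGF-B hearts, and 10.10, 10.01 and 10.08 in wild-type scramble hearts. The wild-type VEGF-B hearts lay above the wild-type scramble hearts, by 0.45 ± 0.18 (limma adjusted p = 0.23), and the deleted VEGF-B hearts overlapped with those controls, at a difference of 0.11 ± 0.15. Trib3, a pseudokinase induced by ATF4 and CHOP (ILMN_1225528), read 7.09, 6.72, 6.58 and 6.77 in deleted VEGF-B hearts, 6.71, 6.52 and 6.06 in deleted scramble hearts, 6.54 and 6.45 in wild-type VEGF-B hearts, and 6.58, 6.73 and 6.23 in wild-type scramble hearts. Its values in deleted VEGF-B hearts overlapped with both scramble groups and lay above both wild-type VEGF-B hearts, by 0.29 ± 0.19 on average, and the difference with both was 0.27 ± 0.17.

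**Figure D2:**
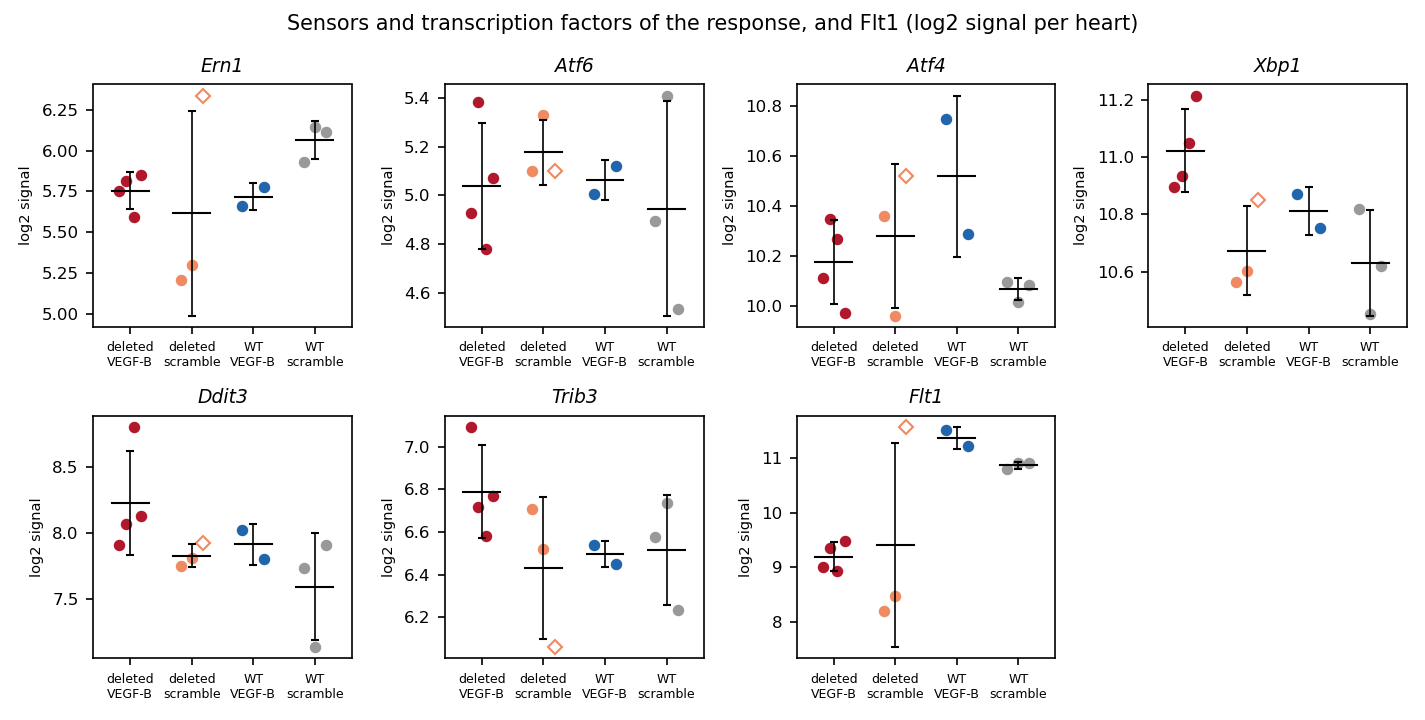
Normalized log2 signal per heart of the tested sensors Ern1 and Atf6, the regulators Atf4, Xbp1, Ddit3 and Trib3, and Flt1, in the 4 groups. Points are hearts, lines group means, bars SD, and the open diamond is deleted scramble replicate 3, which is highest of the 12 hearts for Ern1, at 6.34, and for Flt1, at 11.56.

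Among the degradation genes (7 genes, 4 tested) only Syvn1 rose. Syvn1, or HRD1, the ubiquitin ligase of ER-associated degradation (ILMN_2628258), read 10.69, 10.72, 10.84 and 10.85 in deleted VEGF-B hearts, 10.33, 10.41 and 10.45 in deleted scramble hearts, 10.46 and 10.49 in wild-type VEGF-B hearts, and 10.40, 10.25 and 10.30 in wild-type scramble hearts. The deleted VEGF-B hearts lay clear of all 8 others and the spread within each group was small. The rise was 0.46 ± 0.09 with both (limma adjusted p = 0.00259) and 0.38 ± 0.09 with the virus in deleted hearts (adjusted p = 0.0307). Sel1l (ILMN_1244431), the partner of HRD1, differed by 0.26 ± 0.12 with both, Herpud1 (ILMN_2790241), a stress-induced part of the same complex, by 0.22 ± 0.09, and Derl2 (ILMN_2685125), a membrane channel component, by 0.13 ± 0.15. None of these 3 passed, although every deleted VEGF-B heart was above every wild-type scramble heart for Herpud1. Edem1, Derl1 and Derl3 had 3, 2 and 1 probes, none of which passed.

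Of the 4 translocation and transport genes, all tested, Sec61a1 rose. Sec61a1, the pore through which new proteins enter the ER (ILMN_3162476), read 7.75, 7.43, 7.47 and 7.55 in deleted VEGF-B hearts, 6.69, 7.36 and 7.26 in deleted scramble hearts, 7.21 and 7.18 in wild-type VEGF-B hearts, and 7.13, 6.80 and 7.12 in wild-type scramble hearts. The deleted VEGF-B hearts lay above all others, and deleted scramble replicate 1 was the lowest heart. The rise was 0.53 ± 0.15 (limma adjusted p = 0.0266), and a second probe, detected on 5 arrays, gave 0.32 and did not pass. Sec61b (ILMN_2609807), a smaller subunit of the pore, and Ssr1 (ILMN_2516383), a pore-associated protein, differed by 0.12 ± 0.10 and 0.23 ± 0.16. Lman1 (ILMN_1212637), a receptor that carries glycoproteins out of the ER, differed by -0.20 ± 0.11, and all its deleted VEGF-B values lay below the wild-type scramble values.

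Over all 28 genes the median log2 fold change with deletion and VEGF-B together was 0.39, against -0.03 over all genes, and 26 of the 28 were above 0. For 12 of the 28 every deleted VEGF-B heart was above every wild-type scramble heart, against 15.7% of all genes. Ddit3 was called in 2 of the 12 fits that each left out 1 array. The fit without wild-type scramble replicate 2 kept 8 of the 13 genes, losing Ddit3, Dnajc3, Pdia3, Sec61a1 and Xbp1. Pdia3 and Xbp1 also did not pass without wild-type scramble replicate 3 or deleted VEGF-B replicate 3, Xbp1 without deleted VEGF-B replicate 4, and Sec61a1 without deleted VEGF-B replicate 1. Without deleted scramble replicate 3, whose array is not among the 2 groups but shares in the estimate of spread, 12 of the 13 remained, against 12% of all genes, Ddit3 was lost, and Ern1 passed as lower, against 9.81% of all genes.

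The virus within deleted hearts compares VEGF-B with scramble virus where the labels state the endothelial deletion of VEGFR1. Flt1 in deleted scramble replicate 3 went against that label and lay above all wild-type hearts. Beside the 5 genes called, 23 did not pass. The median log2 fold change was 0.34, against -0.01 over all genes, and 25 of 28 were above 0. In 10 of 28 every deleted VEGF-B heart exceeded every deleted scramble heart, against 8.98% of all genes, and without deleted scramble replicate 3 in 15 of 28, against 16.7%. Without that replicate, 8 genes passed and 4.71% of all genes were called higher. The 5 remained, and Dnajc3 (0.63, limma adjusted p = 0.0382), Hspa5 (adjusted p = 0.0271) and Ern1 were added. Hspa5 was detected in neither of the 2 remaining deleted scramble hearts, so its rise there is at least 1.25-fold by the means of background-corrected signals. Only Sdf2l1 and Pdia4 passed without deleted scramble replicate 1 or replicate 2, and they and Hsp90b1 without deleted VEGF-B replicate 1 or replicate 3. This comparison and the one above share the 4 deleted VEGF-B arrays, so that the 5 genes were called in both is no separate evidence.

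In wild-type hearts the VEGF-B virus gave no call by limma among the 28 genes, and 4 had an unadjusted p under 0.05, near the 15.5% of all genes that did. The smallest adjusted p was 0.23. The median log2 fold change was 0.22, against -0.02 over all genes, and 24 of 28 were above 0. Sdf2l1 gave 0.64 ± 0.27 (limma adjusted p = 0.265), Creld2 0.39 ± 0.19 and Pdia4 0.34 ± 0.19. Both wild-type VEGF-B hearts were above all wild-type scramble hearts for 11 of the 28, where 17% of all genes were. The 2 hearts differed, and replicate 1 was the higher for 22 of the 28 genes, against 48.9% of all genes.

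The deletion under scramble virus gave no call among the 28 by limma, and none had an unadjusted p under 0.05, where 11.4% of all genes did. The median was 0.04, and Sdf2l1, Pdia4 and Creld2 differed by 0.02 ± 0.24, 0.04 ± 0.17 and 0.00 ± 0.17. Serpinh1 was the 1 gene of the 28 in which all deleted scramble hearts exceeded all wild-type scramble hearts, against 8.15% of all genes, at 0.18 ± 0.10. Without deleted scramble replicate 3, Ern1 passed as lower, as given above, and was the 1 gene with an unadjusted p under 0.05. The median was then 0.02, Sdf2l1, Pdia4 and Creld2 differed by -0.19 ± 0.24, -0.06 ± 0.18 and -0.06 ± 0.19, and Serpinh1 by 0.14 ± 0.11. Serpinh1, Herpud1 and Hyou1 were then the 3 genes without overlap in that direction, against 12.2% of all genes. Under VEGF-B virus the deletion also gave no call among the 28 by limma, and 6 of the 28 had an unadjusted p under 0.05, against 11% of all genes. There Sdf2l1 gave 0.99 ± 0.25 (limma adjusted p = 0.191) and Pdia4 0.79 ± 0.18 (adjusted p = 0.144), and the median was 0.21. For 9 of the 28 all deleted VEGF-B hearts exceeded both wild-type VEGF-B hearts, against 11% of all genes.

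Whether the virus acted differently in deleted and in wild-type hearts was tested as an interaction. It gave no call by limma among the 28 or among all genes (0%), and 3 of the 28 had an unadjusted p under 0.05, against 5.04% of all genes. The difference of the 2 virus responses was 0.97 ± 0.35 for Sdf2l1, 0.75 ± 0.24 for Pdia4 and -0.56 ± 0.23 for Atf4, with limma adjusted p-values of 0.976, 0.975 and 0.976. Without deleted scramble replicate 3 no gene passed either, and the 3 values were 1.18 ± 0.34, 0.85 ± 0.25 and -0.44 ± 0.23, with limma adjusted p-values of 0.715, 0.727 and 0.879. Ern1 was then at 0.85 ± 0.16 (limma adjusted p = 0.441). The larger response in deleted hearts was thus not shown to differ from that in wild-type hearts.

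**Figure D3:**
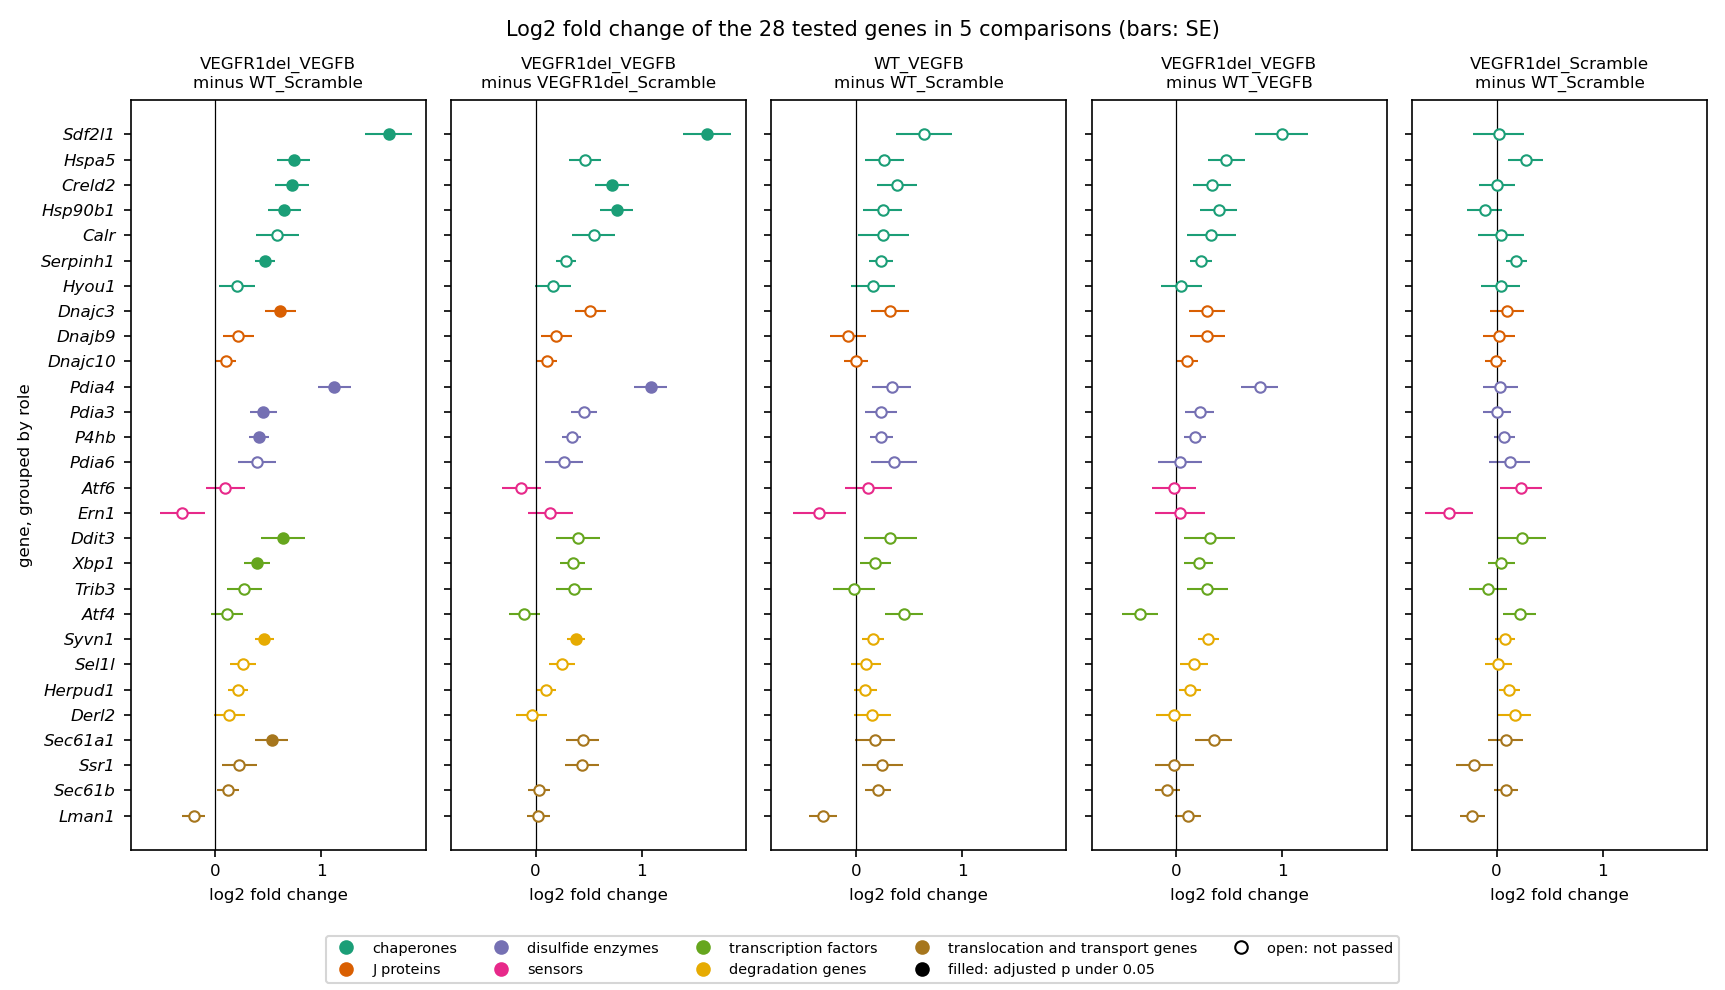
Log2 fold change and SE of the 28 tested genes, grouped by role (colours), in 5 comparisons, each named as 1 group minus another. Filled points passed an adjusted p of 0.05, 13 in the first panel and 5 in the second, and the other 3 panels have none.

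Other genes of the secretory pathway were counted beside the 28. With deletion and VEGF-B together, where 11.6% of all genes rose and 9.43% fell, 4 of 27 other ER folding genes rose and none fell, a share near that of all genes, with a median of 0.09. Fkbp11 (0.63, limma adjusted p = 0.00272), Ppib (0.52, adjusted p = 0.00475) and Cnpy3 (0.39, adjusted p = 0.0458) are proline isomerases or a receptor chaperone of the ER, and Tmx3 (0.45, adjusted p = 0.0433) is a membrane-bound isomerase. Of 17 other degradation genes, Aup1 (0.51), which brings in ubiquitin-conjugating enzymes, and Edem2 (0.40), which trims glycans, rose, and Marchf6, an ER ubiquitin ligase, fell by 0.51, with a median of -0.01. Tram1 (0.32), a translocon partner, rose of 23 translocon and N-glycosylation genes. Tmed9 (0.37), a cargo receptor, rose of 29 ER-Golgi transport genes. The medians of these last 2 lists were 0.06 and 0.07, and both counts were below the share of all genes. None of 16 cytosolic heat shock genes passed, and their median was 0.00.

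Among the 21 ATF4 and integrated stress response targets the 3 that fell were Aldh1l2 (-0.72, limma adjusted p = 0.00485) and Shmt2 (-0.50, adjusted p = 0.00852), mitochondrial enzymes of folate metabolism, and Vldlr (-0.43, adjusted p = 0.0215), a lipoprotein receptor. The median of that list was -0.01. With the virus in deleted hearts Ero1b (0.68) and Aup1 (0.41) rose, Aldh1l2 fell by 0.74, and no other gene of these 6 lists passed. Without deleted scramble replicate 3, Aldh1l2 fell by 0.82 (limma adjusted p = 0.0181), Ero1b and Aup1 no longer passed (adjusted p = 0.0575 and 0.0634), and Fkbp11 and Dnajc1, an ER J protein, did. No gene of the 6 lists passed with the virus in wild-type hearts, with the deletion under either virus or in the interaction, and without that replicate none passed with the deletion under scramble or in the interaction.

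**Figure D4:**
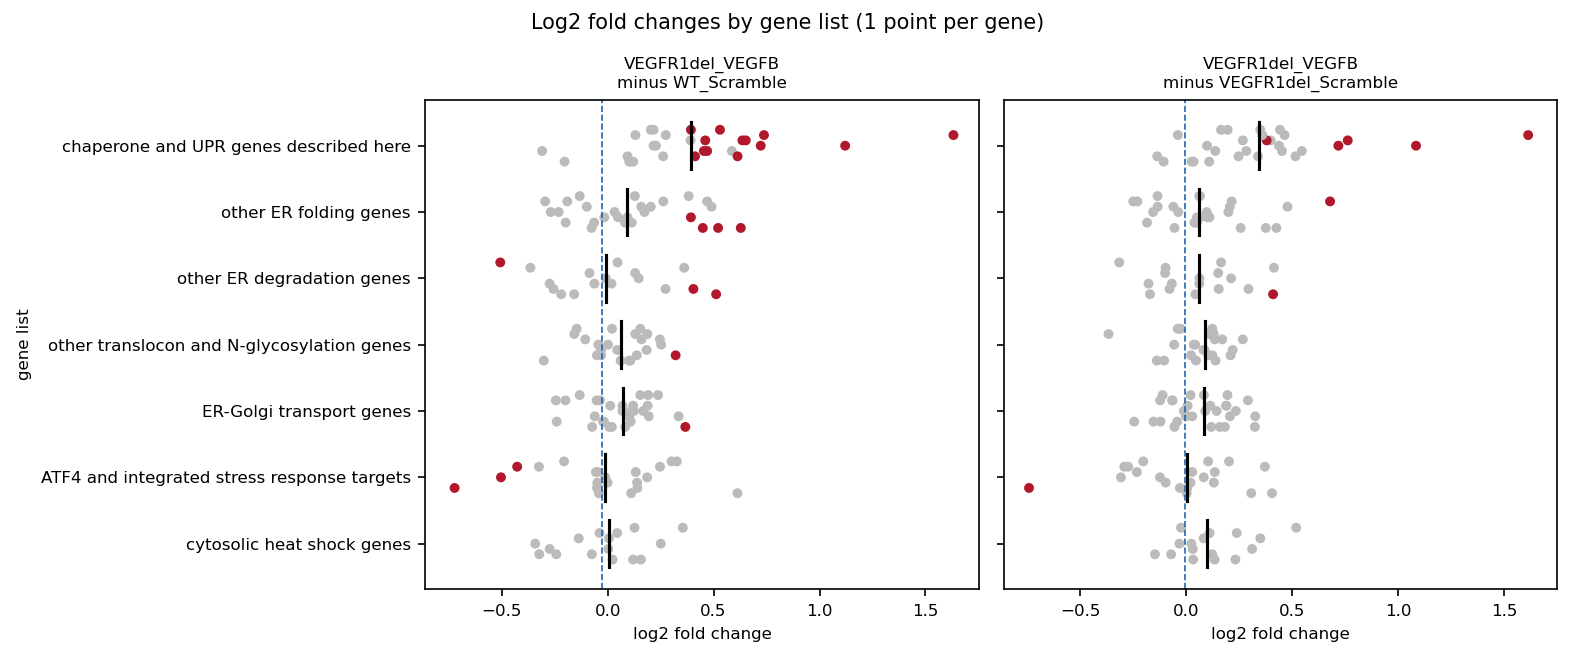
Log2 fold change per gene of the 28 tested genes and of 6 other lists, for deleted VEGF-B minus wild-type scramble hearts (left) and deleted VEGF-B minus deleted scramble hearts (right). Red points passed an adjusted p of 0.05, black lines are list medians and the dashed line is the median of all genes. The genes described here have medians of 0.39 and 0.34, and the other lists lie between -0.01 and 0.10.

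Cell type markers moved with the groups as well. The summed linear signal of 12 measured endothelial markers (of 14) was 29163 to 30546 in deleted VEGF-B hearts, 19096 to 25240 in deleted scramble hearts, 23212 to 24013 in wild-type VEGF-B hearts, and 14607 to 15890 in wild-type scramble hearts. For 7 pericyte markers it was 4843 to 5366, 3658 to 4547, 4361 to 4393 and 2766 to 3129 in the same groups. Deleted scramble replicate 3 held the highest sum of its group for both lists. Deleted scramble replicates 1 and 2 read 19096 and 20360.5 for endothelial markers, and 3658 and 4012 for pericyte markers. The sum of 10 fibroblast markers (of 11), at 10401 to 11913 in deleted VEGF-B hearts and 11103 to 12827 in wild-type scramble hearts, and that of 9 ventricular cardiomyocyte markers (of 10), at 124872 to 131470 and 125348 to 128448, overlapped. Single fibroblast markers did change between these groups, as 2 of the 10 passed as higher and 3 as lower, against 11.6% and 9.43% of all genes. Of the 9 ventricular markers, 0 passed as higher and 1 as lower. Higher in deleted VEGF-B hearts than in wild-type scramble hearts without overlap were also the sums of 2 atrial markers (of 5), 12009 to 22029 against 5848 to 7519, of 3 neutrophil markers (of 6), 164 to 299 against 77.4 to 118, and of 5 T and NK cell markers (of 8), 152 to 508 against 109 to 125. Of the 5, Ccl5 and Cd3d passed as higher. In wild-type scramble replicates 1, 2 and 3, 1, 0 and 0 of the T and NK cell markers were detected. For the neutrophil markers these counts were 0, 2 and 1, so both control sums were near background. The sums of 8 macrophage markers (of 9), 2553 to 4411 against 2325 to 2959, overlapped. The part of these cell types in the rise of ER genes was not tested.

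Plasma cells, which are rich in these chaperones, were represented by 2 of 8 markers, Mzb1 and Fkbp11. Jchain, Sdc1, Prdm1, Tnfrsf17 and Derl3 were not detected on enough arrays to be measured. The sum of the 2 measured markers was 267 to 303 in deleted VEGF-B hearts and 185 to 225 in wild-type scramble hearts, and the markers differed in direction. Fkbp11, which is also counted among the ER folding genes above, was at 232 to 269 against 146 to 186. Mzb1, a plasma and B cell folding factor, was at 26.1 to 45.7 against 38.4 to 57.3, a log2 fold change of -0.35 ± 0.20 (limma adjusted p = 0.228). Deleted VEGF-B replicate 3 was the highest of its 4 hearts for 11 of the 28 genes and for 8 of the 13 that rose, against 23.7% of all genes. The same heart had the largest sum of the 5 T and NK cell markers, 508, against 152 to 181 in the other 3 deleted VEGF-B hearts. Its sums were also the highest of its group for macrophage (4411) and smooth muscle markers (13464). They were the lowest for erythroid (14490, against 22071 to 22234), neutrophil, pericyte, fibroblast and plasma cell markers. Its endothelial, ventricular, atrial and B cell sums lay between those of the others. Whether any of this bears on its values was not tested. Without this heart 10 of the 13 passed with deletion and VEGF-B together. Being the highest for many of these genes was not particular to it. Wild-type scramble replicate 1 was the highest of its group for 18 of the 28 and 11 of the 13, against 31.7% of all genes. Deleted scramble replicate 3 was so for 16 and 10, against 35.8%. The genes tended to vary together from heart to heart, so they are not separate observations.

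Where more than 1 probe of a gene passed, as for 13 of the 28, the probes pointed the same way in 12 of 13 genes with deletion and VEGF-B together, Atf4 being the exception, and in 12 of 13 with the virus in deleted hearts, where the Ssr1 probes gave 0.44 and -0.15. Agreement was lower elsewhere. It held for 11 of 13 with the virus in wild-type hearts, 9 of 13 with the deletion under either virus, and 7 of 13 in the interaction.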

How the data were processed

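RNA from 12 hearts was read on Illumina bead arrays. The table of probe intensity deposited by the authors holds linear signals that were neither background-corrected nor normalized, and, per the file headers, each has a detection p-value of its own. A second table, of log2 values deposited by the authors, had been normalized in 3 sets of 5, 3 and 4 arrays, as the values show, by a method not given in the sources used here, and served as an alternative. Signals were corrected and quantile normalized over 12 arrays with neqc of limma 3.58.1 (R 4.3.3; offset 16). Probes needed a detection p under 0.05 on at least 2 arrays, which kept 20312 of 45281. Gene symbols came from the platform annotation, with Ero1l listed as Ero1a, and each gene stands for its brightest probe on average (14240 features, 11009 with a symbol).

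All features were fitted in 1 limma model (lmFit and eBayes, group means), 6 contrasts were tested two-sided, and the Benjamini-Hochberg adjustment ran over all features of a contrast. Genes were called at an adjusted p under 0.05. Where a gene was undetected throughout a group, the fold is a lower bound, taken against the lowest signal that counts as detected. It uses means of background-corrected signals and makes no allowance for spread. All 36 genes are named, with values per heart for those called in any comparison and for the tested sensors and regulators, and of other lists at most 4 called genes of smallest p. Ern1's values without 1 library, the near misses and the single genes given with no call were chosen after their values were seen. The members and lists were chosen with earlier results of these data known. Hearts are separate mice as the series' text states, and the number of hearts limits the precision. Same-numbered hearts did not deviate together (correlations of -0.04 to 0.11), so the numbers pair nothing. The pipeline was tested on simulated data. The plots used matplotlib 3.10.9 under Python 3.11.15.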

Additional observations from a re-analysis of the deposited data

How the results depend on the processing

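With the virus in deleted hearts, the count of 5, where 2.82% of all genes were called higher, became 10 without background correction (4.42%), 11 with median scaling (7.07%), 15 with the authors' deposited values (10.8%) and 10 with a trended, robust variance (4.18%), and was 2 to 8 over the fits that left out 1 array each (0.198% to 7.3% of all genes called in either direction). With deletion and VEGF-B together, the count of 13 (11.6%) became 20 with the authors' deposited values (20.6%). It was 8 to 13 with 1 array left out (15.1% to 21.8% of all genes called in either direction). That range is to be set beside the 11.6% called higher and 9.43% called lower as reported, not beside the 11.6% alone. With the deletion under VEGF-B virus the count of 0 became 2 with the authors' values (Pdia4 and Sdf2l1; 0.442%) and 1 with the trended, robust variance (Pdia4; 0.246%), and stayed at 0 with any array left out. With the deletion under scramble it was 0 to 1 with an array left out, the 1 being Ern1. The counts for wild-type hearts and for the interaction were 0 under every alternative run. Other alternatives, no detection filter, every probe, only the groups compared and the authors' sets as a random block, gave 4 to 6 and 11 to 13 calls in the first 2 comparisons. All calls among the 28 genes were higher under the scalings tried. Under median scaling the all-gene median was 0.12 with the virus in deleted hearts, where that of the 28 genes was 0.46. Of all genes called, 95.9% were then higher there (86.6% with the authors' values, 61.1% as reported), and 83.2% with both (80.4% and 55.1%). A fit with the replicate number as a block called 4 and 10 genes in place of 5 and 13. The numbers pair no hearts. For this fit and the alternatives above with no share of all genes beside them, the counts cannot be set against the overall call rate. The fits without wild-type scramble replicate 2 or deleted VEGF-B replicate 3 have only the range of shares given above.

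Each of the 18 called gene results was read in 12 fits that left out 1 array and in 9 other alternatives. Of the 378 readings, 335 stayed called, 43 did not and 0 turned round. The fits share most of their arrays, so these readings are not separate tests. Sdf2l1 and Pdia4 were called in every fit for both comparisons. Ern1, which did not pass, ranged from -0.064 to 0.50 with the virus in deleted hearts when 1 array was left out, and turned to -0.064 and -0.020 without deleted scramble replicate 1 and replicate 2. The dim probes of Hspa5, Atf6 and Hyou1 were near background on some arrays, which limits what they show. The cause of these differences between settings was not tested.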
